A study of Arabidopsis thaliana with 8 samples.

Results

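The mitochondrial genome of Arabidopsis thaliana contributed 135 of the 32232 loci in a table of FPKM (fragments per kilobase of transcript, relative to the mapped fragments of the library). The loci described here are the 81 of these whose position is on ChrM and whose FPKM was above 0 in at least 2 of the 8 libraries. The libraries were made from inflorescence RNA of wild-type Col-0, in the Columbia background, and of the mutant dbr1-2. Both genotypes grew at 22 °C under a day of 16 h light and 8 h dark, ribosomal RNA was removed from their total RNA, and some of that RNA then received RNase R (2 h, 37 °C). This gave 4 groups of 2 libraries: Col-0 without RNase R, dbr1-2 without RNase R, Col-0 with RNase R and dbr1-2 with RNase R. The labels name no transgene and no second allele in any group, and the sources used here do not give what the dbr1-2 lesion is.

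Plant mitochondria keep a small genome that encodes core subunits of the respiratory chain and of ATP synthase, factors that attach haem to cytochrome c, and some proteins of the mitochondrial ribosome, while nuclear genes encode the remaining subunits. Mitochondrial transcripts in plants are often made as long precursors, are trimmed at their ends, lose group II introns by splicing and are edited from C to U before translation. DBR1 opens the branched loop (lariat) left by splicing of nuclear introns, and RNase R degrades linear RNA from its 3′ end, whereas closed loops resist it.

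The 54 mitochondrial rows left out comprised 51 listed at 0 in all 8 libraries and 3 above 0 in 1 library only. Those 3 were ATMG00910 at 0.0251 FPKM in undigested Col-0 replicate 1, ATMG00920 at 0.03 FPKM in dbr1-2 without RNase R replicate 1, and ATMG01275 (NADH dehydrogenase 1A) at 0.395 FPKM in dbr1-2 with RNase R replicate 1. Just inside the rule was ATMG00360, above 0 in 2 libraries. Of the 81 loci, 63 carry a gene ID and 18 have none. ATMG00730 names 2 separate loci, XLOC_032128 and XLOC_032131, which are kept apart below. The table gives 64 of the 81 loci the same position, ChrM 11917 to 321075 (309.2 kb, TAIR10), so most of them have no position of their own and reads of overlapping loci may have been divided between them. Product names were taken from the notes of the TAIR10.1 reference, which cite a mitochondrial ID as the best protein match of a nuclear copy. By that route 15 of the 81 loci have a product, 14 are cited without a function, and the others are given by ID alone.

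Copies of mitochondrial DNA in the nucleus bear on many of these values. In the TAIR10.1 reference, 72.57% of the mitochondrial genome (266927 of 367808 bases) matched chromosome 2 at 99% identity or more over at least 200 bases. Of 33 mitochondrial coding genes, 22 were matched there over their whole length and 6 (cox1, cox2, ccmB, atp4, nad4L and nad9) not at all. The coding sequence of atp9, the proton-carrying ring subunit of ATP synthase and the product of the most abundant locus, is shown because it occurs letter for letter in both genomes. It lies on the minus strand at chrMT:270961-271185 of TAIR10.1, and its 225 bases are matched at 100% on the minus strand of chr2:3251856-3252080. Capitals mark its last 63 bases, which occur a second time on chromosome 2, at chr2:3313941-3314003.
atp9 coding sequence: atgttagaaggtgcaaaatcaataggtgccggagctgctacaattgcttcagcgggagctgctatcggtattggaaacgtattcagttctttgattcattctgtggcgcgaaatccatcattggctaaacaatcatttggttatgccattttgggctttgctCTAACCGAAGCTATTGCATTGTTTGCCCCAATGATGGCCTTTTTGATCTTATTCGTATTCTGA
The coding sequence of cob, which encodes apocytochrome b of respiratory complex III, behaves the same way over all 1182 bases, at chr2:3450863-3452044 on the plus strand. Its first 90 bases, from the minus strand of chrMT:182769-182858, are shown with the start codon in capitals.
cob, first bases of the coding sequence: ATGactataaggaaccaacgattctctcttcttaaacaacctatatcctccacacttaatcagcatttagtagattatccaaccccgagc
The first bases of cob also have a near match elsewhere on chromosome 2. A read from either sequence has at least 2 possible places, so the FPKM of such mitochondrial loci, and of their chromosome 2 copies, is uncertain. These reference positions belong to TAIR10.1 and not to the ChrM of the table.

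Depth was read from the steps between low values, most of which are whole reads. A read on 1 kb was worth 0.0111 to 0.0134 FPKM in undigested libraries and 0.0791 to 0.1165 FPKM in digested ones, so low loci are measured far less precisely with RNase R. The labels do not state that replicates came from different plants, and the tags of a genotype share 1 sample code, so p-values here measure the spread between these libraries, which may be technical. The sequencing tags carry dates from 2 years. Among undigested libraries replicate 1 has the earlier year and replicate 2 the later year in both genotypes, but both digested Col-0 libraries have the later year and both digested dbr1-2 libraries the earlier one. With RNase R, genotype and tag year therefore cannot be told apart. The tag of dbr1-2 with RNase R replicate 1 names removal of ribosomal RNA alone, where those of the others name mRNA removal too. Taking the markers of the tissue, the floral regulators AP1, AP3, PI, AG and SEP3 were above 0 in every library, while LFY was at 0 in both Col-0 libraries with RNase R. AP1 (−0.41) and SEP3 (−0.45) were called as lower in undigested dbr1-2, and of the 5 tested floral genes 3 were lower and 1 higher in dbr1-2 with RNase R. All 3 measured genes of mature pollen were lower in dbr1-2 without RNase R (log2 change −1.48 for VGD1, −1.27 for AGP11 and −0.93 for AGP6, each past the limma threshold), and of 4 green tissue markers 2 were higher and 1 was lower there. The part of these markers in the results below was not tested. DBR1 itself (AT4G31770) had 0.662 and 0.694 FPKM in undigested Col-0 and 0.339 and 0.430 FPKM in undigested dbr1-2, below the level at which loci were tested. In bulk RNA, fewer mitochondria-rich cells and less mitochondrial RNA per cell cannot be told apart.

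Summed over the 81 loci, mitochondrial FPKM came to 3328 and 4091 in undigested Col-0 and to 3887 and 4255 in undigested dbr1-2. Digested Col-0 had sums of 1169 and 1190, and digested dbr1-2 had 1151 and 1229. The 4 undigested libraries thus all lay above the 4 digested ones, and the genotypes overlapped. Without RNase R the summed FPKM overlapped only through ATMG00360 (described with the exact zeros), while shares of the table total overlapped without that locus too. As a share of the table total this was 0.989% to 1.38% without RNase R and 0.0288% to 0.0418% with it, where the total itself was 295494 to 384482 FPKM without and 2796450 to 4003100 FPKM with RNase R. Chloroplast loci, the other organelle, held 45.3% to 47.9% and 42.6% to 58.1% of the total.

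Without RNase R the mitochondrial pool was dominated by a few loci, with 73.2% to 74.8% of its FPKM in the 5 highest of each library. With RNase R the 5 highest held 49.1% to 53.8%. ATMG01080, F0-ATPase subunit 9, led without RNase R with 1596 and 1590 FPKM in Col-0 and 1900 and 1795 FPKM in dbr1-2, and alone made 38.9% to 48.9% of the mitochondrial sum. ATMG00060 followed with 529.5 and 580.2 FPKM in Col-0 and 654.0 and 672.2 FPKM in dbr1-2. Both lie far above the rest, ATMG00360 (described with the exact zeros) aside. The next loci, ATMG00730 (XLOC_032131; cytochrome c oxidase subunit 3), ATMG00410 (ATPase subunit 6-1), ATMG01360 and the locus ATMG00160,ATMG01280 (cytochrome c oxidase subunit II-like), lay between 92.6 and 126.1 FPKM. At the other end, 62 to 65 of the 81 loci reached 1 FPKM in a library without RNase R and 55 to 57 in a library with it. The median locus was at 2.28 to 2.91 FPKM without and 1.83 to 2.66 FPKM with RNase R, so the median locus differed far less than the sum did.

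**Figure D1:**
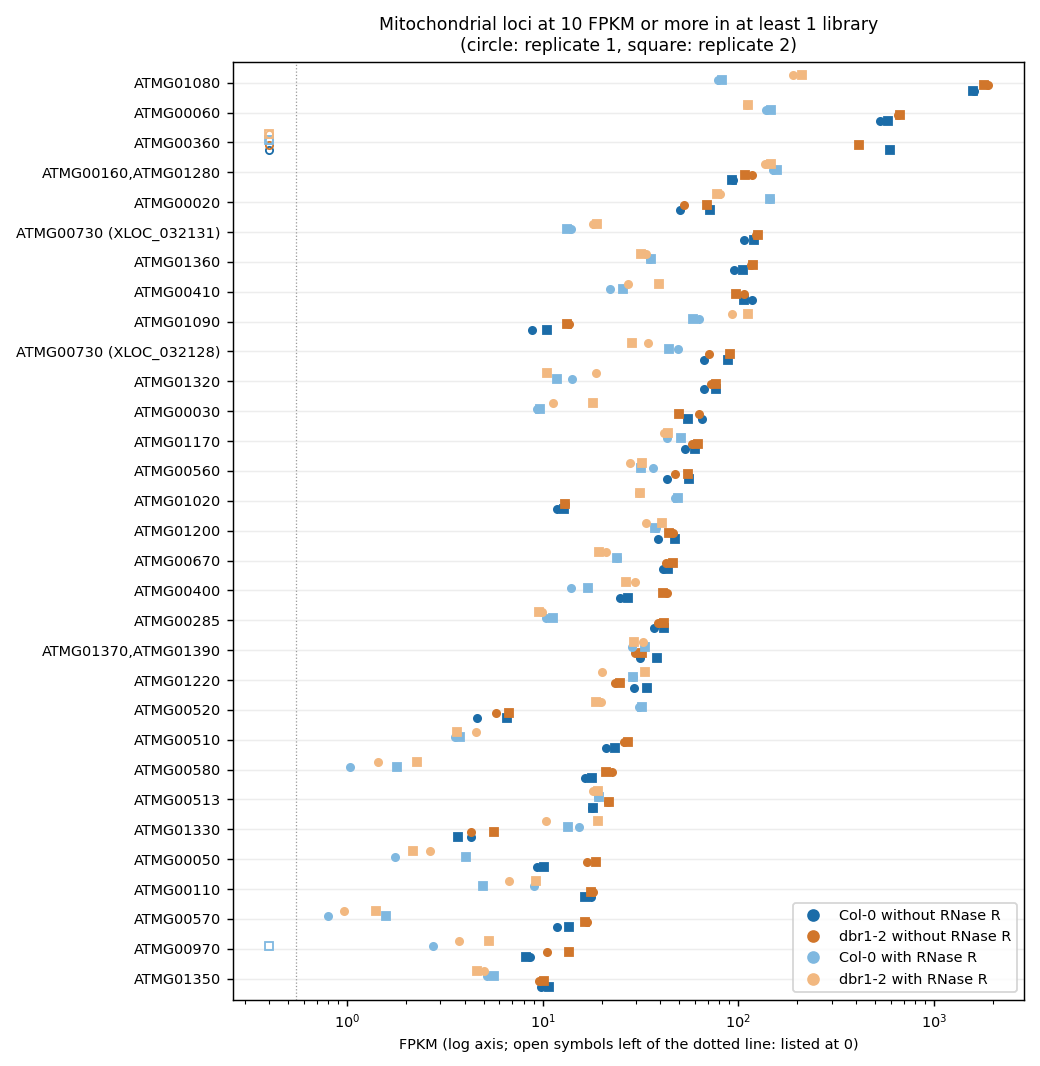
FPKM (log axis) in each of the 8 libraries for the 31 mitochondrial loci that reached 10 FPKM in at least 1 library, coloured by group, with circles for replicate 1 and squares for replicate 2. ATMG01080 lies at 1590 to 1900 FPKM without RNase R and at 78.5 to 211.9 FPKM with it, and open symbols at the left mark values listed at 0.

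Replicates lay close together without RNase R. Among loci at 1 FPKM or more in both replicates, the median fold between them was 1.12 in Col-0 (62 loci) and 1.08 in dbr1-2 (61 loci), and no locus differed by more than 1.5-fold. With RNase R the medians were 1.12 (53 loci) and 1.18 (52 loci), and 5 and 12 loci differed by more than 1.5-fold. Of 58 loci at 1 FPKM or more in all 4 undigested libraries, 31 were higher in the later-year library of both genotypes, 7 were lower in both and 20 went opposite ways. ATMG00020 shows this shared shift, with 50.3 FPKM in the earlier against 71.6 FPKM in the later year in Col-0 and 53.0 against 68.9 FPKM in dbr1-2. Such counts were not made over all loci, so whether the shift is particular to mitochondrial loci was not tested.

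Exact zeros were rare without RNase R and more frequent with it. Undigested Col-0 replicates 1 and 2 had 1 and 0 of the 81 loci at 0, and undigested dbr1-2 had 2 and 1. Each digested Col-0 library had 8 and each digested dbr1-2 library 6. That makes 32 of 648 values, spread over 16 loci, and 14 of these loci were at 0 only in libraries with RNase R. Both replicates of a group were at 0 for 4 loci. ATMG00370, annotated as a Ycf1 protein, was at 0 in both undigested dbr1-2 libraries but at 0.0281 and 0.0295 FPKM in those of Col-0, which is under the worth of 3 reads on 1 kb there (0.0334 and 0.0347 FPKM). A difference of this size is not detectable at this depth.

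ATMG00220, apocytochrome b, was at 0 in both Col-0 libraries with RNase R and in dbr1-2 with RNase R replicate 1. Elsewhere it was at 0.034 and 0.047 FPKM in Col-0 and at 0.0272 and 0.0545 FPKM in dbr1-2 without RNase R, and at 0.0799 FPKM in dbr1-2 with RNase R replicate 2. At the coding length of 1182 bases these values are 3, 4, 2 and 4 reads without RNase R and 1 read in the last library, each within 0.0146 of a whole number. ATMG00970 was at 0 in Col-0 with RNase R replicate 2 although its replicate 1 held 2.75 FPKM and the undigested Col-0 libraries held 8.6 and 8.22 FPKM.

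ATMG00360 did not behave like the others. It was listed at 0 in Col-0 replicate 1, at 597.4 FPKM in Col-0 replicate 2, at 0 in dbr1-2 replicate 1 and at 412.3 FPKM in dbr1-2 replicate 2 without RNase R, and at 0 in all 4 libraries with RNase R. Both libraries with a value carry the later tag year and lack RNase R. In them ATMG00360 alone made 14.6% and 9.69% of the mitochondrial sum, and without it the sums of the 4 undigested libraries were 3328 and 3494 FPKM in Col-0 and 3887 and 3842 FPKM in dbr1-2, which do not overlap. An exact 0 in such a table can be a failed estimate, and which holds for ATMG00360 was not tested. It was not called in any of the 5 comparisons below (limma adjusted p of 0.219 to 1).

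**Figure D2:**
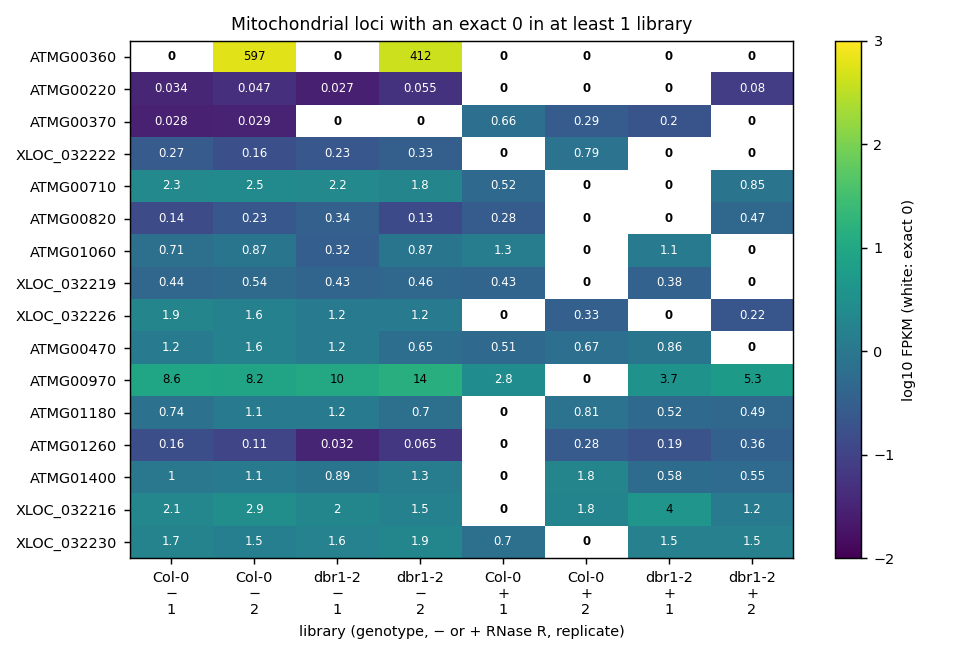
The 16 mitochondrial loci listed at exactly 0 in at least 1 library (rows) in the 8 libraries (columns, with − and + for RNase R), with the FPKM printed in each cell and coloured by its log10, and white cells at 0. Zeros number 4 in the 4 columns without RNase R and 28 in the 4 columns with it.

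Of the 81 loci, 68 reached 1 FPKM in at least 2 libraries and were tested on log2(FPKM + 1) with limma, in a fit over all 14351 such loci of the table. The 13 others never exceeded 1.49 FPKM. A locus is called here at a Benjamini-Hochberg adjusted p under 0.05, and changes below are on this log2 scale, which understates those of low loci.

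RNase R sorted the mitochondrial loci. ATP synthase subunits 9 (ATMG01080) and 6-1 (ATMG00410), cytochrome c oxidase subunit 3 (XLOC_032131) and NADH dehydrogenase 2B were lower with RNase R in both genotypes under the 4 scalings, as deposited included, in their mitochondrial rows. Their chromosome 2 copies, described last, are not part of that statement. ATMG01090 (ATP synthase 9 by its note), ATMG00520, ATMG01020, ATMG01330 and the cytochrome c oxidase II-like locus were higher in both. All of them were lower instead when every library is scaled to the same summed FPKM (TPM scaling). In Col-0, 14 of 68 loci were higher and 31 lower with RNase R, 45 in all, where 79.3% of all tested loci were called (8.27% higher and 71.0% lower). In dbr1-2, 7 were higher and 36 lower, 43 in all, where 84.3% of all loci were called (15.0% higher and 69.3% lower). Both comparisons use their own libraries. In both genotypes 7 loci were higher and 29 lower, 1 (ATMG00720) was higher in Col-0 (0.29) and lower in dbr1-2 (−0.29), 8 were called in Col-0 alone, 6 in dbr1-2 alone and 17 in neither.

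The split between higher and lower depends on how libraries are scaled. Scaling by median ratios of nuclear loci gave 31 higher and 15 lower in Col-0 and 21 higher and 13 lower in dbr1-2, scaling on the mitochondrial loci themselves gave 21 and 25 for Col-0 but 17 and 23 for dbr1-2, and TPM gave 0 and 68 in each genotype. The median change of all tested loci was −0.66 in Col-0 and −0.69 in dbr1-2 as deposited, −0.06 and −0.08 with median-ratio scaling, −0.50 and −0.35 with mitochondrial scaling, and −2.67 and −2.69 with TPM. Relative to that median, the median mitochondrial locus lay 0.31 higher in Col-0 and 0.21 higher in dbr1-2 as deposited, 0.31 and 0.22 higher with median-ratio scaling and 0.31 and 0.23 higher with mitochondrial scaling, but −0.07 and −0.27 from it with TPM. It also lay −0.07 and −0.34 from it among loci with a mean FPKM of at least 5, and −0.02 and −0.15 with no filter, so the sign of this difference rests on the choice of loci too. The order of loci within a library does not change with a scale factor.

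**Figure D3:**
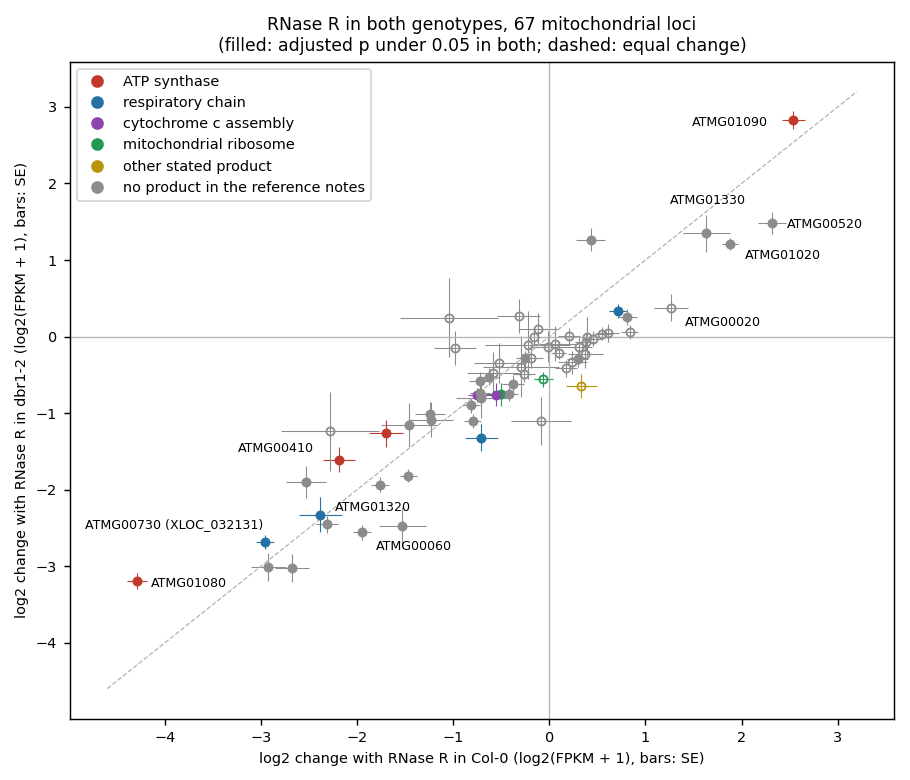
Change with RNase R on the log2(FPKM + 1) scale in Col-0 (horizontal) and dbr1-2 (vertical) for 67 tested mitochondrial loci, with bars of 1 SE, colour by product and filled symbols for loci called in both genotypes. ATMG00360, listed at 0 in most libraries, is not drawn, and ATMG01080 (−4.29 and −3.20) and ATMG01090 (2.54 and 2.83) lie at opposite ends.

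ATP synthase makes ATP from the proton gradient across the inner membrane. Its 4 loci with a stated product were all called with RNase R, where 79.3% (Col-0) and 84.3% (dbr1-2) of all tested loci were called. ATMG01080 was at 1596 and 1590 FPKM in undigested Col-0 and at 78.5 and 82.3 FPKM with it, and in dbr1-2 at 1900 and 1795 FPKM without and at 189.9 and 211.9 FPKM with it. Every digested library lies below every undigested one (log2 change −4.29, SE 0.10, limma adjusted p = 2.4e-07 in Col-0, and −3.20, SE 0.10, adjusted p = 5.7e-07 in dbr1-2). For ATMG01090 the product ATP synthase 9 rests on the note of its copy AT2G07777 (chromosome 2 from 3249396 to 3251545) alone. The atp9 coding sequence was matched at chr2:3251856-3252080 and chr2:3313941-3314003, neither of them inside AT2G07777. ATMG01090 ran the other way, from 8.83 and 10.5 FPKM to 62.9 and 58.4 FPKM in Col-0 and from 13.6 and 13.3 FPKM to 92.8 and 111.5 FPKM in dbr1-2. It rose by 2.54 (SE 0.12, limma adjusted p = 2.17e-06) in Col-0 and by 2.83 (SE 0.12, adjusted p = 1.16e-06) in dbr1-2, but under TPM its changes were −0.68 and −0.52. As a share of ATMG01080 in the same library, which no scaling alters, ATMG01090 went from 0.553% and 0.658% to 80.1% and 71.0% in Col-0 and from 0.717% and 0.743% to 48.9% and 52.6% in dbr1-2.

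ATMG00410, ATPase subunit 6-1 of the membrane part of the enzyme, was at 118.0 and 106.7 FPKM in Col-0 and 107.1 and 97.2 FPKM in dbr1-2 without RNase R. It was at 22.0 and 25.7 FPKM in Col-0 and 27.4 and 39.3 FPKM in dbr1-2 with it (log2 changes −2.19, SE 0.17 and −1.61, SE 0.17). ATMG01190, subunit 1 of the catalytic head, fell by 1.70 in Col-0 and 1.27 in dbr1-2 (with median-ratio scaling the change in dbr1-2 was −0.46, limma adjusted p = 0.096), from 8.72 and 9.94 FPKM to 2.34 and 2.01 FPKM in Col-0 and from 8.56 and 9.85 FPKM to 2.51 and 4.12 FPKM in dbr1-2.

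Of the 4 tested loci with a stated product of the respiratory chain, 3 were lower and 1 higher with RNase R in each genotype. Loci given by ID alone are not counted by function. Of all tested loci, 71.0% (Col-0) and 69.3% (dbr1-2) were lower. Cytochrome c oxidase passes electrons to oxygen, and both loci named ATMG00730 carry its subunit 3. At XLOC_032131 FPKM went from 106.6 and 119.6 to 14.0 and 13.4 in Col-0 and from 122.8 and 126.1 to 18.0 and 18.9 in dbr1-2 (log2 changes −2.96 and −2.69, SE 0.09 each). At XLOC_032128 it went from 66.6 and 88.4 to 49.3 and 44.1 in Col-0 and from 70.9 and 90.6 to 34.7 and 28.5 in dbr1-2 (−0.71 and −1.32, SE 0.18 each; 0.27 and −0.39 with median-ratio scaling, where neither was called). Groups did not overlap at either locus, and the fall was steeper at XLOC_032131. How reads were divided between the pair is unknown from the sources used here.

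The locus named ATMG00160,ATMG01280, cytochrome c oxidase subunit II-like, was at 93.5 and 92.6 FPKM in Col-0 and 116.9 and 108.5 FPKM in dbr1-2 without RNase R. With RNase R it was at 150.2 and 156.9 FPKM in Col-0 and 136.4 and 147.5 FPKM in dbr1-2, so it was the highest mitochondrial locus of both digested Col-0 libraries. Its change was 0.72 (SE 0.09, limma adjusted p = 0.000191) in Col-0 and 0.33 (SE 0.09, adjusted p = 0.00965) in dbr1-2, and −2.62 and −3.08 under TPM. Without dbr1-2 without RNase R replicate 2, the call in dbr1-2 was lost (adjusted p = 0.0795). ATMG01320, NADH dehydrogenase 2B of complex I, was at 66.8 and 77.2 FPKM in Col-0 and 72.4 and 77.3 FPKM in dbr1-2 without RNase R, and at 14.2 and 11.9 FPKM and 18.7 and 10.6 FPKM with it (log2 changes −2.38 and −2.33, SE 0.23 each).

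Cytochrome c assembly has 2 tested loci with a stated product, both lower as deposited and neither called with median-ratio scaling. ATMG00180, a cytochrome c biogenesis protein by its note, fell by 0.75 in Col-0 and 0.76 in dbr1-2 (SE 0.10 each). With median-ratio scaling it rose by 0.03 and 0.01. Its FPKM as deposited went from 4.97 and 5.46 to 2.54 and 2.86 in Col-0 and from 5.96 and 6.22 to 3.05 and 3.30 in dbr1-2. ATMG00960 fell by 0.55 and 0.76 (SE 0.15 each) as deposited, and rose by 0.31 and 0.07 with median-ratio scaling. The changes as deposited lie close to the median of all tested loci.

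The 2 tested loci with a stated product of the mitochondrial ribosome have directions that depend on the scaling. ATMG00560, an OB-fold-like protein of the large subunit by its note, was at 43.0 and 55.8 FPKM in Col-0 and 47.5 and 55.0 FPKM in dbr1-2 without RNase R, and at 36.7 and 31.8 FPKM and 28.0 and 32.1 FPKM with it. It fell by 0.51 in Col-0 (SE 0.15, limma adjusted p = 0.0145) and by 0.75 in dbr1-2 (SE 0.15, adjusted p = 0.00182), but with median-ratio scaling its changes were 0.46 and 0.18, the former called as higher. ATMG00980, of the ribosomal protein S12/S23 family, fell by 0.56 in dbr1-2 (SE 0.10, limma adjusted p = 0.000894), and in Col-0 its difference was −0.06 (adjusted p = 0.57). With median-ratio scaling it was called as higher in both, by 0.83 in Col-0 and 0.29 in dbr1-2.

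Several loci given by ID alone were also lower in both genotypes. ATMG00060 went from 529.5 and 580.2 FPKM to 137.9 and 147.5 FPKM in Col-0 and from 654.0 and 672.2 FPKM to 111.3 and 112.6 FPKM in dbr1-2. ATMG00580, ATMG00570, ATMG00030 and ATMG00510 had changes of −2.92, −2.68, −2.53 and −2.31 in Col-0 and of −3.02, −3.02, −1.90 and −2.45 in dbr1-2, and kept their direction under every scaling. The highest digested value among the 4 was 18.0 FPKM. ATMG00285 was at 37.1 to 41.6 FPKM in the 4 undigested and at 9.56 to 11.3 FPKM in the 4 digested libraries (log2 changes −1.77 and −1.93, SE 0.10 each). ATMG00050 was at 9.35 and 10.2 FPKM in undigested Col-0 and at 16.9 and 18.8 FPKM in undigested dbr1-2, and at 1.76 and 4.05 FPKM and 2.65 and 2.17 FPKM after digestion, with changes of −1.53 and −2.47 (SE 0.25 each).

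As deposited, rises were fewer than falls, though not with median-ratio scaling, and some were at loci that were low before digestion. ATMG00520 went from 4.59 and 6.58 FPKM to 30.9 and 32.05 FPKM in Col-0 and from 5.78 and 6.72 FPKM to 19.8 and 18.7 FPKM in dbr1-2 (log2 changes 2.32 and 1.48, SE 0.15 each; −0.79 and −1.64 under TPM). ATMG01020 went from 11.9 and 12.9 FPKM to 47.5 and 48.9 FPKM in Col-0 and from 12.9 and 13.1 FPKM to 31.2 and 31.5 FPKM in dbr1-2 (1.88 and 1.21, SE 0.08 each; −1.34 and −2.05 under TPM). ATMG01330, which shares the interval of ATMG01320 (ChrM 327889 to 333105, TAIR10), rose by 1.63 and 1.35 where ATMG01320 fell, and under TPM changed by −1.32 and −1.68. Its FPKM was 4.30, 3.67, 4.31 and 5.66 in the undigested and 15.4, 13.5, 10.4 and 19.1 in the digested libraries.

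ATMG00020 (ChrM 8847 to 11415, TAIR10) was at 50.3 and 71.6 FPKM in undigested Col-0 and at 145.1 and 145.6 FPKM with it, a rise of 1.26 (SE 0.18, limma adjusted p = 0.000331; −2.06 under TPM). In dbr1-2 it was at 53.0 and 68.9 FPKM without and 80.1 and 77.7 FPKM with RNase R and was not called (limma adjusted p = 0.0784). Taking only libraries of the same tag year, all 45 loci called in Col-0 (later year) and all 43 called in dbr1-2 (earlier year) kept the sign of their change with RNase R. Those changes reuse both digested libraries and an undigested library that made the call, so a change of sign was hardly possible. They are no separate test of tag year.

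Without RNase R, the genotypes differed at 2 of 68 mitochondrial loci, both higher in dbr1-2, where 17.5% of all tested loci were called (14.2% higher and 3.32% lower). ATMG00400, whose note gives no function, was at 24.9 and 27.4 FPKM in Col-0 and 43.4 and 41.2 FPKM in dbr1-2 (log2 change 0.68, SE 0.12, limma adjusted p = 0.00763). ATMG01090 (ATP synthase 9 by its note) was at 8.83 and 10.5 FPKM in Col-0 and 13.6 and 13.3 FPKM in dbr1-2 (0.45, SE 0.12, limma adjusted p = 0.0396). Neither locus overlapped between the genotypes. The median change of the 68 loci was 0.05, beside 0.13 for all tested loci. An unadjusted limma p under 0.05 was reached by 10 of 68 mitochondrial loci, beside 4479 of all 14351 tested loci, so by a smaller share of the former.

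Apart from ATMG01090, no respiratory or ATP synthase locus with a stated product was called between genotypes in undigested RNA. ATMG01080 had a log2 difference of 0.21 (SE 0.10, limma adjusted p = 0.206), ATMG00410 of −0.14 (SE 0.17, adjusted p = 0.636) and ATMG01320 of 0.06 (SE 0.23, adjusted p = 0.891). Within tag years the median difference of the 68 loci was 0.05 in the earlier year and 0.03 in the later one, with 35 loci higher in dbr1-2 in both years and 18 lower in both. In the main fit 43 of 68 mitochondrial loci had a change above 0, beside 10299 of all 14351 tested loci. Leaving out a library leaves 1 in its group, whose spread is then assumed to be that of the other groups. On that footing none of the 2 calls was left without Col-0 replicate 1 or without either dbr1-2 replicate of the undigested libraries, 1 was left without Col-0 replicate 2, and 6 were made without either digested dbr1-2 library. Over the 4 undigested libraries left out in turn the change was 0.61 to 0.74 for ATMG00400 and 0.34 to 0.56 for ATMG01090. A fit on the 4 undigested libraries alone called 15 loci (12 higher and 3 lower), and TPM called 6 (2 higher and 4 lower). Of all 14351 tested loci, these settings called 5847 and 3155, a larger share than of the mitochondrial loci.

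With RNase R, 25 of 68 loci differed between genotypes, 6 higher and 19 lower in dbr1-2, where 37.0% of all tested loci were called (29.9% higher and 7.09% lower). Median-ratio scaling gave 4 higher and 25 lower, TPM 1 and 6, and scaling on mitochondrial loci 11 and 11. With tag year as a covariate, estimated from the undigested libraries, 5 were higher and 3 lower, and a fit on the 4 digested libraries alone gave 3 and 5. Of all 14351 tested loci, these settings called 5487, 1715, 5903, 2423 and 2633, in that order. Because genotype and tag year cannot be told apart here, the values below describe these libraries.

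ATMG01080 was at 78.5 and 82.3 FPKM in Col-0 and 189.9 and 211.9 FPKM in dbr1-2 with RNase R (log2 change 1.31, SE 0.10, limma adjusted p = 7.12e-05), and the call was kept under all 19 alternatives tried, with adjusted p up to 0.017. ATMG01090 was at 62.9 and 58.4 FPKM in Col-0 and 92.8 and 111.5 FPKM in dbr1-2 (0.74, SE 0.12, adjusted p = 0.00221; adjusted p = 0.235 under TPM). ATMG00400 was at 14.0 and 17.1 FPKM in Col-0 and 29.6 and 26.5 FPKM in dbr1-2 (0.82, SE 0.12, adjusted p = 0.00121; adjusted p = 0.113 under TPM). These loci were higher in dbr1-2 in every library of the comparison. Both ATMG01090 and ATMG00400 were also the loci called in undigested RNA.

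Among loci with a mean of at least 5 FPKM, falls in dbr1-2 were led by ATMG00020 (−0.87, SE 0.18, limma adjusted p = 0.00658), which was at 145.1 and 145.6 FPKM in Col-0 and 80.1 and 77.7 FPKM in dbr1-2. ATMG00520 (−0.68) and ATMG01020 (−0.60) came next among them, and adding tag year ended the call of ATMG00520 (adjusted p = 0.138). The calls of ATMG00020 and ATMG01020 were kept under all 19 alternatives, with adjusted p up to 0.0493 and 0.0248, both reached with tag year, where the fall of ATMG00020 shrank to −0.44 and that of ATMG01020 to −0.54. The pair named ATMG00730 split, with XLOC_032131 higher (0.41, SE 0.09, adjusted p = 0.0101) and XLOC_032128 lower (−0.56, SE 0.18, adjusted p = 0.041) in dbr1-2. Of 19 alternatives, 10 ended the call at XLOC_032128, tag year included, where undigested FPKM already went from 66.6 in the earlier to 88.4 in the later year for Col-0 and from 70.9 to 90.6 for dbr1-2. At XLOC_032131 the call ended under 4: median-ratio scaling, TPM, only the libraries compared, and without Col-0 with RNase R replicate 2. ATMG00980 (−0.36) and ATMG00060 (−0.35) were smaller falls, each lost under 8 alternatives, tag year included.

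**Figure D4:**
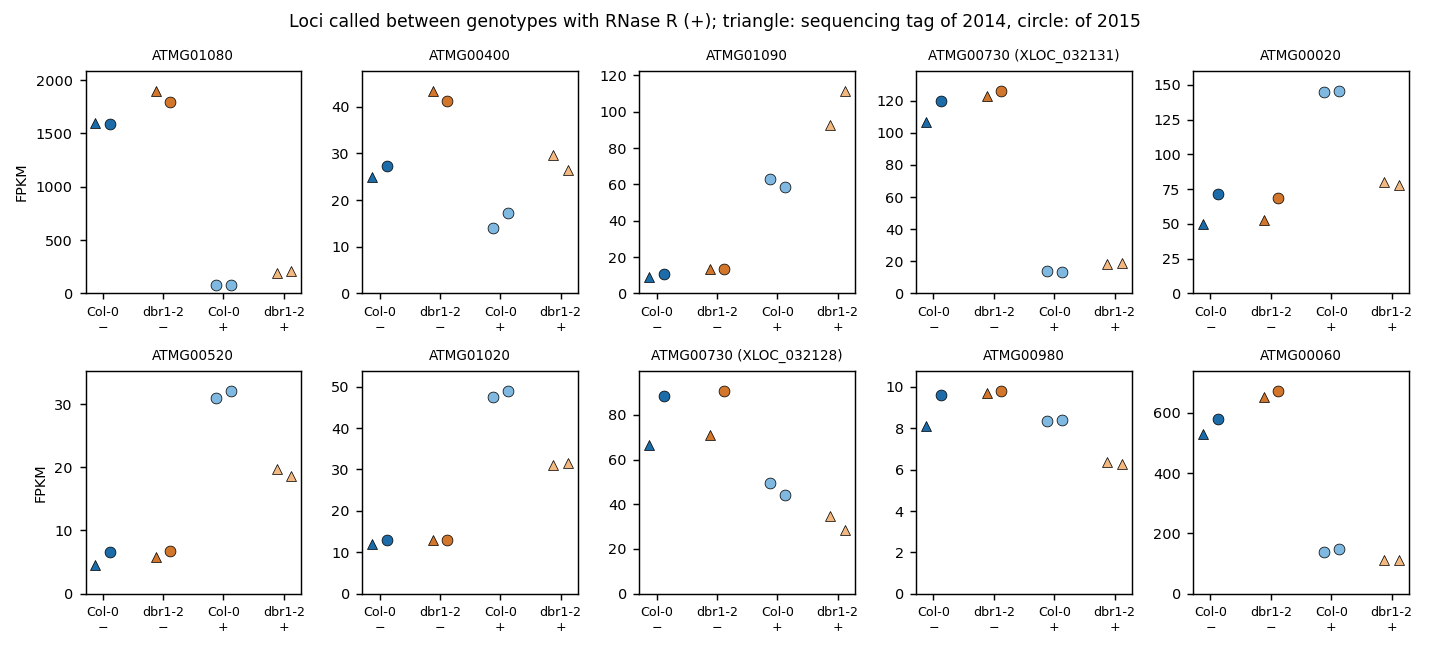
FPKM in the 8 libraries for the 10 mitochondrial loci named for a genotype difference with RNase R (mean FPKM of at least 5), in 4 groups per panel with − and + for RNase R, triangles for the earlier tag year and circles for the later one. With RNase R every Col-0 value is a circle and every dbr1-2 value a triangle, and ATMG00020 lies at 145.1 and 145.6 FPKM in the former and 80.1 and 77.7 FPKM in the latter.

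The test of whether RNase R changed loci differently in the genotypes (the interaction) called 11 of 68 loci, 2 with a higher and 9 with a lower change in dbr1-2, where 13.7% of all tested loci were called (10.8% higher and 2.99% lower). The change of ATMG01080 was 1.096 less negative in dbr1-2 (SE 0.15, limma adjusted p = 0.00283). The changes of ATMG00520, ATMG01020 and ATMG00060 were lower in dbr1-2 by −0.84 (SE 0.21, adjusted p = 0.0353), −0.67 (SE 0.12, adjusted p = 0.00883) and −0.60 (SE 0.14, adjusted p = 0.0247). ATMG00280, whose note names the catalytic domain of the Rubisco large chain, was low, at 1.34 and 1.71 FPKM (Col-0) and 2.39 and 2.75 FPKM (dbr1-2) without RNase R and at 1.89 and 2.49 FPKM (Col-0) and 1.59 and 1.00 FPKM (dbr1-2) with it, and its difference of changes was −0.98 (SE 0.23, adjusted p = 0.0274). That of its chromosome 2 copy AT2G07732 was 0.59 (SE 0.19, limma adjusted p = 0.0775), and the sum of the pair with RNase R was 1.38 times that without in Col-0 and 1.32 times in dbr1-2. For ATMG01080, ATMG00520, ATMG01020 and ATMG00060, set between libraries of the same tag year in each genotype, the differences were 1.05, −0.52, −0.61 and −0.52, with no test. With tag year as a covariate 2 loci were called, both higher, and scaling on mitochondrial loci gave 4 higher and 1 lower. Of all 14351 tested loci, 676 and 2290 were called under these settings. The number called fell without any of the undigested libraries or digested Col-0 replicate 2, and rose without digested Col-0 replicate 1 or either digested dbr1-2 library.

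Where a mitochondrial locus has a copy on chromosome 2 with its own row, the table divides the signal in different ways. There are 19 such pairs with a stated product, and the chromosome 2 locus was higher in all 8 libraries in 5 of them and in no library in 8. For apocytochrome b, the copy AT2G07727 (chromosome 2 from 3449534 to 3452776) held 45.6, 53.4, 60.5 and 62.4 FPKM without RNase R and 23.5, 24.9, 24.95 and 18.7 FPKM with it (both Col-0 libraries first, then both of dbr1-2), while ATMG00220 never passed 0.0799 FPKM. For ribosomal protein L5, ATMG00210 was at 0 in all 8 libraries while AT2G07725 held 35.6 and 33.6 FPKM in undigested Col-0 and 36.6 and 37.15 FPKM in undigested dbr1-2. The zero of a mitochondrial row therefore cannot be read as absence of its product.

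For F0-ATPase subunit 9, both members of the pair were high. AT2G07671 (chromosome 2 from 3251566 to 3252341) was at 1417 and 1291 FPKM in Col-0 and 1588 and 1468 FPKM in dbr1-2 without RNase R, and at 69.5 and 69.3 FPKM and 96.7 and 125.7 FPKM with it. Its changes with RNase R were −4.27 in Col-0 and −3.78 in dbr1-2 (SE 0.14 each), and with RNase R it was higher in dbr1-2 by 0.66 (SE 0.14, limma adjusted p = 0.00723). The difference of its changes between genotypes was 0.49 (SE 0.19, adjusted p = 0.148) and was not called, unlike that of ATMG01080. The sum of the pair fell 19.7-fold in Col-0 and 10.8-fold in dbr1-2, beside 19.8-fold and 9.2-fold for ATMG01080 alone.

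For NADH dehydrogenase 2B the pair went opposite ways. AT2G07689 (chromosome 2 from 3336109 to 3336753) rose where ATMG01320 fell: its mean was 7.37 FPKM without and 41.0 FPKM with RNase R for Col-0, and 9.48 and 32.1 FPKM for dbr1-2 (log2 changes 2.34 and 1.66, SE 0.13 each). Summed, the pair went from 79.35 to 54.0 FPKM for Col-0 and from 84.4 to 46.7 FPKM for dbr1-2 (group means), which is 1.47-fold and 1.81-fold lower, where ATMG01320 alone was 5.53-fold and 5.12-fold lower. The OB-fold-like protein showed the same arrangement, with AT2G07715 going from 8.85 to 37.7 FPKM for Col-0 and from 8.89 to 27.8 FPKM for dbr1-2, and the pair from 58.2 to 72.0 FPKM and from 60.2 to 57.9 FPKM (group means). For the former pair the size of the fall, and for the latter pair in Col-0 also its direction, depends on where reads were placed, whereas for subunit 9 the fold of the sum and of the mitochondrial locus are close.

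**Figure D5:**
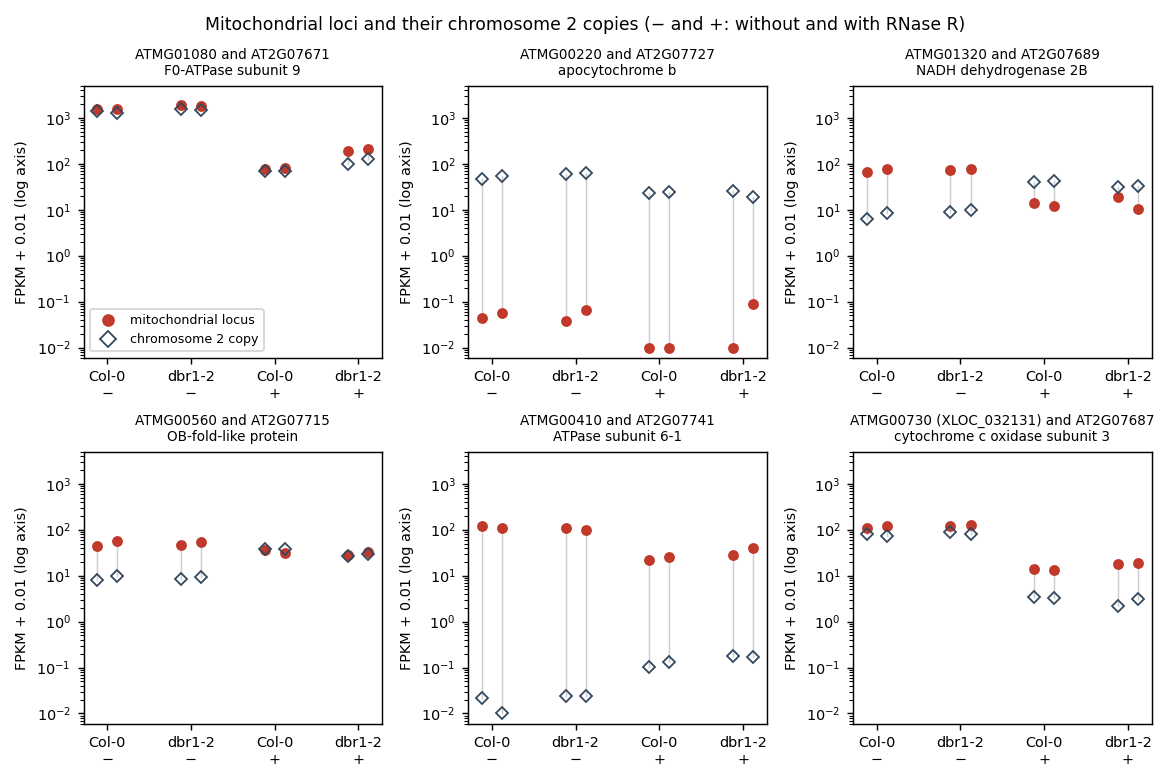
FPKM plus 0.01 (log axis) of 6 mitochondrial loci (circles) and their chromosome 2 copies (diamonds) in the 8 libraries, with − and + for RNase R and a grey line joining the 2 values of a library. Circles and diamonds lie together for F0-ATPase subunit 9, lie apart for apocytochrome b and ATPase subunit 6-1, and change places with RNase R for NADH dehydrogenase 2B.

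Nuclear genes of the respiratory chain and ATP synthase were set beside the mitochondrial loci. Most encode other subunits of the same complexes. The list also holds AOX1A (alternative oxidase) and CYTC-1 and CYTC-2 (cytochrome c), which are not such subunits. Of the 17 listed genes, all tested, 15 were lower with RNase R in each genotype (median log2 changes −1.22 in Col-0 and −1.51 in dbr1-2). Of all tested loci, 71.0% and 69.3% were lower. Between genotypes 3 were higher and 0 lower in dbr1-2, both without and with RNase R, where 14.2% and 29.9% of all tested loci were higher. Without RNase R the 3 were AOX1A (0.93), CYTC-2 (0.81) and RISP2 (0.37). With it they were ATP2a (0.94), CYTC-2 (0.49) and RISP1 (0.46). COX6A (AT4G37830), a nuclear subunit of cytochrome c oxidase, was at 24.5 and 22.0 FPKM in Col-0 and 33.8 and 29.8 FPKM in dbr1-2 without RNase R, and at 2.12 and 0.796 FPKM and 4.38 and 2.21 FPKM with it. ATP2b (AT5G08690), a beta subunit of ATP synthase, lay at 30.1 to 45.8 FPKM in all 8 libraries and was the 1 gene of the list called as higher with RNase R, in dbr1-2 (log2 change 0.28, limma adjusted p = 0.049).

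Nuclear genes for factors that transcribe, splice or trim mitochondrial RNA were low, and 8 of 14 were tested. With RNase R 1 was higher and 6 were lower in Col-0, and 6 were lower in dbr1-2, where 71.0% and 69.3% of all tested loci were lower. Without RNase R none of the 8 was called between genotypes (limma, median log2 difference −0.02), where 17.5% of all tested loci were called. With RNase R 1 was higher and 2 were lower in dbr1-2, where 37.0% of all tested loci were called. The higher gene was nMAT3, whose row joins AT5G04050 and AT5G04080. RPOTm (AT1G68990), a phage-type RNA polymerase of mitochondria, was at 2.26 and 2.15 FPKM in Col-0 and 2.02 and 1.81 FPKM in dbr1-2 without RNase R, and at 3.05 and 3.50 FPKM and 2.10 and 2.62 FPKM with it.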

How the data were processed

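FPKM values of 32232 loci in 8 libraries were deposited by the authors as 1 table. TopHat2 2.0.13, Cufflinks 2.2.1, Cuffnorm 2.2.1 and TAIR10 are named per the submitters' processing notes; their settings, the strand rule and the treatment of reads with several places are not given in the sources used here. Libraries were stranded, per the labels' protocols.

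Loci were tested in limma 3.58.1 (R 4.3.3) as log2(FPKM + 1): all 8 libraries in 1 fit of group means with a trended eBayes prior and 4 residual degrees of freedom, over 14351 loci that reached 1 FPKM in 2 or more libraries, two-sided, Benjamini-Hochberg adjusted over all loci within each of 5 comparisons. The fit was tested on simulated data. The worth of 1 read came from steps between low values after taking 199 nt off each transcript length (89.0% to 99.9% of low values within 0.05 of a whole number). The mitochondrial genome of TAIR10.1, which is not the sequence behind ChrM of the table, was compared with its chromosomes by blastn 2.17.0. Sequences are from RefSeq (TAIR10.1). Tables and plots used Python 3.11.15, pandas 2.3.3, numpy 2.4.6 and matplotlib 3.10.9.

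Text names, per comparison, called loci with a mean FPKM of at least 5 over the libraries compared (up to 10 rises and 10 falls), loci at 0 in 1 library and at 50 FPKM or more in another, and loci of listed complexes, the last only where the reference gives a product. XLOC IDs were used where 2 loci share a name, and ATMG00720, ATMG00970, the chromosome 2 copies and the nuclear genes with values were chosen after their values were seen. Members and lists were chosen with earlier results of these data known. Tried as well were other pseudocounts (0.1, 0.01), no filter on low loci, a floor of 5 on the mean FPKM, 3 scalings (median-ratio, TPM, mitochondrial), only the libraries compared, the replicate block, tag year, no trend, and each library left out in turn. BUPS1 and nMAT4 of the gene lists were not matched to a row.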

Additional observations from a re-analysis of the deposited data

Results flagged for a closer look

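The interaction test in limma called 11 mitochondrial loci, at which the effect of RNase R differed between the genotypes. The 4 of them with a mean FPKM of at least 5 are given here, each with an adjusted p given in the report. The change with RNase R in dbr1-2 minus that in Col-0 was 1.096 for ATMG01080 (F0-ATPase subunit 9), whose changes were −3.20 and −4.29. For ATMG00520 it was −0.84, with changes of 1.48 and 2.32. For ATMG01020 it was −0.67, with changes of 1.21 and 1.88. For ATMG00060 it was −0.60, with changes of −2.56 and −1.95. All values are on the log2(FPKM + 1) scale with 2 libraries in each of the 4 groups. Genotype and tag year cannot be told apart among the digested libraries. Of 18 alternatives, 13 ended the call of ATMG00520, 7 that of ATMG00060 and 4 that of ATMG01020, tag year among them each time. The call of ATMG01080 ended under TPM only (adjusted p = 0.135).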

How the results depend on the processing

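Counts of called mitochondrial loci moved by more than 1.5 times as follows. Counts over all tested loci moved with the settings too, and the report gives some of them. Between genotypes without RNase R the 2 calls became 1 with a pseudocount of 0.1, of 0.01, median-ratio scaling, mitochondrial scaling or tag year, 4 with a mean FPKM of at least 5, 6 with TPM and 15 with only the libraries compared. Between genotypes with RNase R the 25 calls became 12 with a mean FPKM of at least 5 (35 loci tested), 7 with TPM, 8 with only the libraries compared and 8 with tag year. With RNase R in Col-0 the 45 calls became 27 with a mean FPKM of at least 5 and 68 with TPM, and in dbr1-2 the 43 became 68 with TPM. For the interaction the 11 calls became 6 with a pseudocount of 0.1, 5 with 0.01, a mean FPKM of at least 5, no filter, TPM or mitochondrial scaling, and 2 with tag year. Leaving out each library in turn gave 0 to 6, 19 to 31, 37 to 50, 37 to 46 and 1 to 14 calls in the 5 comparisons.

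Sign changes among 47 results on named called loci came from TPM scaling alone, which divides by a table total that was higher with RNase R. In Col-0 the change with RNase R became −0.68 for ATMG01090, −0.79 for ATMG00520, −1.34 for ATMG01020, −1.32 for ATMG01330, −2.06 for ATMG00020 and −2.62 for ATMG00160,ATMG01280. In dbr1-2 it became −0.52 for ATMG01090, −1.64 for ATMG00520, −1.68 for ATMG01330, −2.05 for ATMG01020 and −3.08 for ATMG00160,ATMG01280. Of these 47, TPM kept 24 calls, lost 12 and turned 11, tag year kept 39, and median-ratio scaling kept 45. The RNase R changes of the assembly and ribosome loci, outside these 47, changed sign with median-ratio scaling as the report gives.

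With the replicate number as a block, 2, 22, 46, 44 and 9 loci were called, and 46 of the 47 named results kept their call. The number is not known to pair libraries. Over all tested loci, deviations of same-numbered libraries correlated at 0.30 without RNase R, where the number is also the tag year. In the other comparisons they correlated at −0.03, −0.05 and 0.08. Over the tested mitochondrial loci, ATMG00360 included, the correlations were 0.98 without RNase R and −0.17, 0.02 and 0.01 in the other comparisons. Where other settings changed a call, the cause was not tested. With RNase R, values under the worth of 3 reads (0.237 to 0.3495 FPKM on 1 kb) are not told from 0.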
